A study of Homo sapiens with 22 samples.

Results

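HEK293T cells that carried an siRNA against Satellite III (Sat III) transcripts were compared, at the end of a heat shock, with cells that carried a scrambled siRNA. The samples were taken by their labels: 3 arrays of Sat III siRNA (replicates 1, 2 and 4) and 4 arrays of scrambled siRNA (replicates 1 to 4), which makes 7 of the 22 arrays of the study. HEK293T is a human embryonic kidney line that expresses the SV40 large T antigen and takes up nucleic acids easily. All 7 samples were kept at 42 °C for 1 h in a water bath and taken without recovery, so the siRNA was the only labelled difference between the groups. The other 15 arrays covered the same 2 siRNAs in cells left at 37 °C and in cells given 6 h of recovery after the heat, and they are used here as background. Total RNA was measured on Illumina bead arrays. The labels number the replicates without saying whether each was its own culture, and the p-values therefore reflect a sample-to-sample spread that may be only technical. The labels name a single siRNA treatment against Sat III and a single scrambled control, so effects of the target and of the siRNA itself cannot be told apart.

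Sat III RNAs are long non-coding transcripts of pericentromeric repeats. In heat-stressed human cells heat shock factor 1 (HSF1) switches them on, and they stay near their site of origin in nuclear stress bodies, where HSF1, scaffold attachment factor B and several splicing factors gather. The series title connects these RNAs with the heat shock response and proliferation, and the comparison asks which genes differ when their siRNA is present during heat. No probe on the array was named for Sat III (0 of 48803), so its own level was not analysed here.

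Levels are background-corrected, quantile-normalised intensities on the log2 scale, and a difference is Sat III siRNA minus scrambled siRNA with its standard error. A gene was called when limma's Benjamini-Hochberg adjusted p-value was under 0.05 among 10147 genes. On the 7 arrays the median intensity before normalisation lay between 50.4 and 63.8, and 13176 to 14233 probes had a detection p-value under 0.01. The first principal component of these arrays held 36.1% of their variance and placed the 3 Sat III arrays on one side and the 4 scrambled arrays on the other. The second held 20.3% and followed the replicate number, with replicates 1 and 2 below 3 and 4 in both arms. Its values were -0.45, 0.02 and 0.42 on Sat III replicates 1, 2 and 4. On scrambled replicates 1 to 4 they were -0.35, -0.38, 0.16 and 0.58. Of the genes known from HEK293 lines, 6 of the 10 on the array were detected on every array, among them VIM, KRT8 and NEFL, while PAX2 and NES were detected on none. Markers of blood cells were detected on no array (0 of 6), and of 10 fibroblast markers LUM alone was detected on all. Of 9 keratinocyte and cervical carcinoma markers 3 were detected on all arrays (CDH1, CDKN2A and EPCAM) and 6 on none.

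The promoters of the genes that carry the result are shown first, because Sat III repeats consist of GGAAT units and the letters can be looked for directly. Of the 4 genes given for this comparison, EXOSC5, SLC11A2 and NAP1L1 had a promoter in the RefSeq table (GRCh38.p14), as did SLC40A1, the gene with the largest rise among those printed here. Each line runs 5′ to 3′ on the strand of the gene over 300 bases around its start, and capitals mark GGAAT or its complement ATTCC.
EXOSC5, minus strand, chr19:41397310-41397609: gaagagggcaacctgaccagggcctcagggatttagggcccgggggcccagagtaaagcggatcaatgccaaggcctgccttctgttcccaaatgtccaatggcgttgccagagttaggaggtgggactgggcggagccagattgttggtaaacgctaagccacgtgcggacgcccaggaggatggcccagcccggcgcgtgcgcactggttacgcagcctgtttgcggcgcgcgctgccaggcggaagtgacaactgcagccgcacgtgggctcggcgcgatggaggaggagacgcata
SLC11A2, minus strand, first of 4 listed starts, chr12:51026335-51026634: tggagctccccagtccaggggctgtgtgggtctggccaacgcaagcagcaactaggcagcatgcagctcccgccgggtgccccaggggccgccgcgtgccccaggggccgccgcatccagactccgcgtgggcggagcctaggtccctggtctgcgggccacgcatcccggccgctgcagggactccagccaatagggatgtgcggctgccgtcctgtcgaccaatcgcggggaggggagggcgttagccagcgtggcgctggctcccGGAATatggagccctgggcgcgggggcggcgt
NAP1L1, minus strand, chr12:76084636-76084935: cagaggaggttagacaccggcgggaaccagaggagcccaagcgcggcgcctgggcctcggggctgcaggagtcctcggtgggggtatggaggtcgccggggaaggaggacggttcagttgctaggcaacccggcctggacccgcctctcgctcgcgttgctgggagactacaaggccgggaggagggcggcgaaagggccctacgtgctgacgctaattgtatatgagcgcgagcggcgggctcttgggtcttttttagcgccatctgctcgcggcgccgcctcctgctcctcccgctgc
SLC40A1, minus strand, chr2:189580737-189581036: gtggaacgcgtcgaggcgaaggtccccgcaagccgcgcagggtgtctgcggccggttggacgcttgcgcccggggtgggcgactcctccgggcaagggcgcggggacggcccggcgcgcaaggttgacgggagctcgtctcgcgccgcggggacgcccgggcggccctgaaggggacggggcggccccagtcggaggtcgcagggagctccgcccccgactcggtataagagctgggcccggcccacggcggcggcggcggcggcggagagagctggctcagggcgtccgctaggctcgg
The unit occurred 1 time in the window of SLC11A2 and 0 times in those of EXOSC5, NAP1L1 and SLC40A1. With the first listed promoter of each gene, 8364 of the 10147 tested genes had a window. GGAAT on either strand was found in 33.8% of 399 windows of genes called lower, in 23.2% of 194 windows of genes called higher and in 28.6% of the windows of all tested genes. The motif is short, also lies inside longer motifs of other factors, and occurred in 36.5% of all 27305 promoters of the table. A doubled unit was present in 0 windows of called genes and in 21 of all promoters, or 0.0769%. No match says only that these letters are not in this window.

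At the end of heat shock 713 of 10147 genes, or 7.03%, were called between the siRNA arms. Of these, 475 were lower with Sat III siRNA (4.68% of the genes tested) and 238 were higher (2.35%). The falls were also the larger differences. A change of at least 1.5-fold was reached by 146 falling and 29 rising genes, and 17 genes fell and 2 rose at least 2-fold. The median difference was -0.48 among called falls and 0.39 among called rises, and 0.004 over all genes. Every Sat III array lay below every scrambled array for 463 of the 475 falls, against 10.4% of all genes tested, and above for 232 of the 238 rises, against 8.96%. With arrays scaled to a common median in place of quantile normalisation 68 genes were called, and 85.3% of them were lower instead of 66.6%. Without replicate 2 of Sat III siRNA 434 genes were called, the lowest count with any of the 7 arrays left out.

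**Figure D1:**
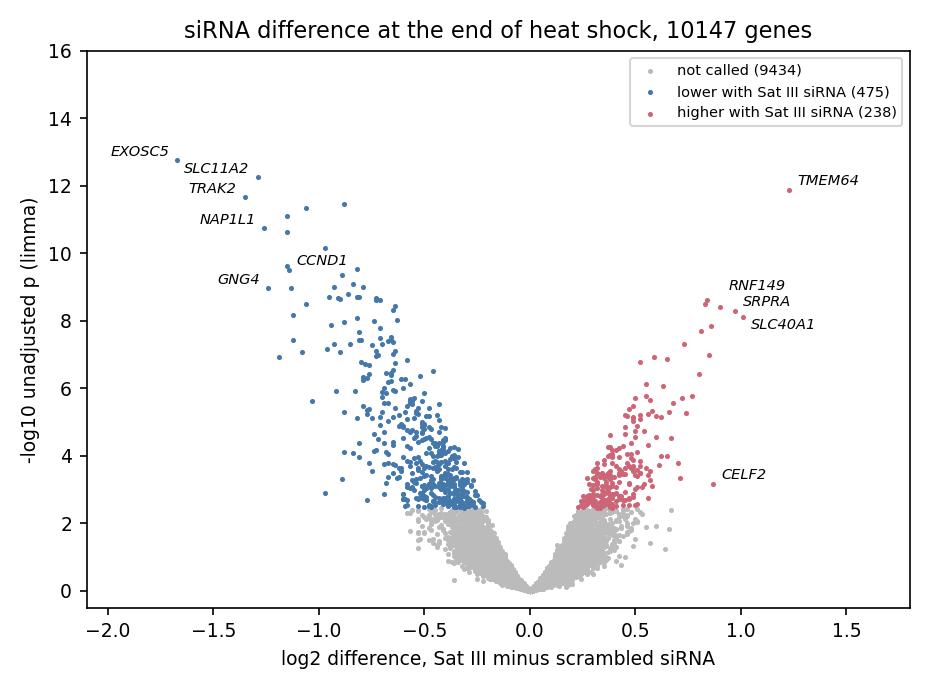
Each point is one of 10147 genes, with its log2 difference (Sat III minus scrambled siRNA, heat-shocked cells) on the x axis and -log10 of limma's unadjusted p on the y axis. Blue marks the 475 genes called lower, red the 238 called higher, and the named genes are the 5 largest falls, the 5 largest rises and CCND1; the blue arm reaches further from 0 than the red arm.

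EXOSC5, a core subunit of the RNA exosome, which degrades and trims RNA from its 3′ end, had the largest fall and the lowest p-value. Its log2 levels were 8.22, 8.62 and 8.47 with Sat III siRNA and 10.12, 10.07, 10.11 and 10.14 with scrambled siRNA. The 2 groups did not overlap, and the lowest scrambled array stood well above the highest Sat III array. The difference was -1.67 ± 0.10, or 3.18-fold lower (limma, adjusted p = 1.74e-09). Among 21 tested exosome subunits and cofactors 2 fell and 0 rose, which is 9.52% and near the 7.03% over all genes, and 1 fell with median scaling. The other one called was ZCCHC7, a subunit of the nuclear polyadenylation complex TRAMP, at -0.54 ± 0.09 (limma, adjusted p = 0.000364). The remaining 19 lay between -0.18 (ZCCHC8) and 0.29 (RBM7), and the list's median was -0.02. Neither the catalytic subunits DIS3 (-0.11) and EXOSC10 (0.01) nor the helicase MTREX (-0.15) passed.

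SLC11A2, the divalent metal transporter DMT1, which brings iron into the cytosol, read 8.55, 8.60 and 8.65 with Sat III siRNA. The scrambled arrays read 9.81, 9.85, 10.04 and 9.83. All 3 Sat III values were lower than all scrambled ones, and the fall was -1.29 ± 0.08, or 2.44-fold (limma, adjusted p = 2.78e-09). The iron exporter SLC40A1 (ferroportin) went the other way. It read 6.15, 6.09 and 5.94 with Sat III siRNA and 4.86, 5.23, 5.01 and 5.10 with scrambled siRNA, where it was not above background on any of the 4 arrays. Its rise was therefore at least 1.46-fold, with a fitted difference of 1.01 ± 0.11 (limma, adjusted p = 2.09e-06).

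Of 15 tested genes of iron transport and storage, 3 fell, 1 rose and 11 did not pass, which is 26.7% called, against 7.03% over all genes, with a median of -0.06. This list holds SLC11A2, a gene given for the comparison. All lists were chosen with earlier results of these data known, so a share above that of all genes is no independent support. With median scaling 1 fell and 1 rose. The other falls were smaller. PCBP1, an RNA-binding protein that also delivers iron to ferritin, changed by -0.43 ± 0.07, and NCOA4, the receptor that takes ferritin to autophagy, by -0.34 ± 0.07 (limma, adjusted p = 0.000247 and 0.00275). The transferrin receptor TFRC at 0.11, the ferritin light chain FTL at 0.01 and the iron regulatory protein ACO1 at -0.10 did not pass. The list holds 24 genes, and 9 of them were not tested here.

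NAP1L1, a chaperone that carries histones H2A and H2B to chromatin, read 9.29, 9.34 and 9.62 with Sat III siRNA. On the scrambled arrays it read 10.49, 10.84, 10.63 and 10.77, again with no overlap. The fall was -1.26 ± 0.10, or 2.40-fold (limma, adjusted p = 2.31e-08), while a second, dimmer probe of the gene gave -0.50 ± 0.16. Among 19 tested histone chaperones, NAP1L1 included, 2 fell and 0 rose, which is 10.5% against 7.03% over all genes, with a median of -0.06. With median scaling, without scrambled replicate 2, or without Sat III replicate 2 or 4, 1 of the 19 was called. The second was ASF1A, a chaperone of histones H3 and H4, at -0.46 ± 0.11 (limma, adjusted p = 0.0153). The paralogs NAP1L2, NAP1L3 and NAP1L4 lay at -0.19, -0.06 and -0.12 and did not pass, and RBBP7 had the highest value of the list, 0.50, without passing. Of 15 tested replication-dependent histone genes only H2AC18 passed, at 0.45 ± 0.11 (limma, adjusted p = 0.00951), with a second probe at 0.21 ± 0.12. That is 6.67% against 7.03% over all genes. With median scaling, or without Sat III replicate 2, 0 of the 15 passed.

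**Figure D2:**
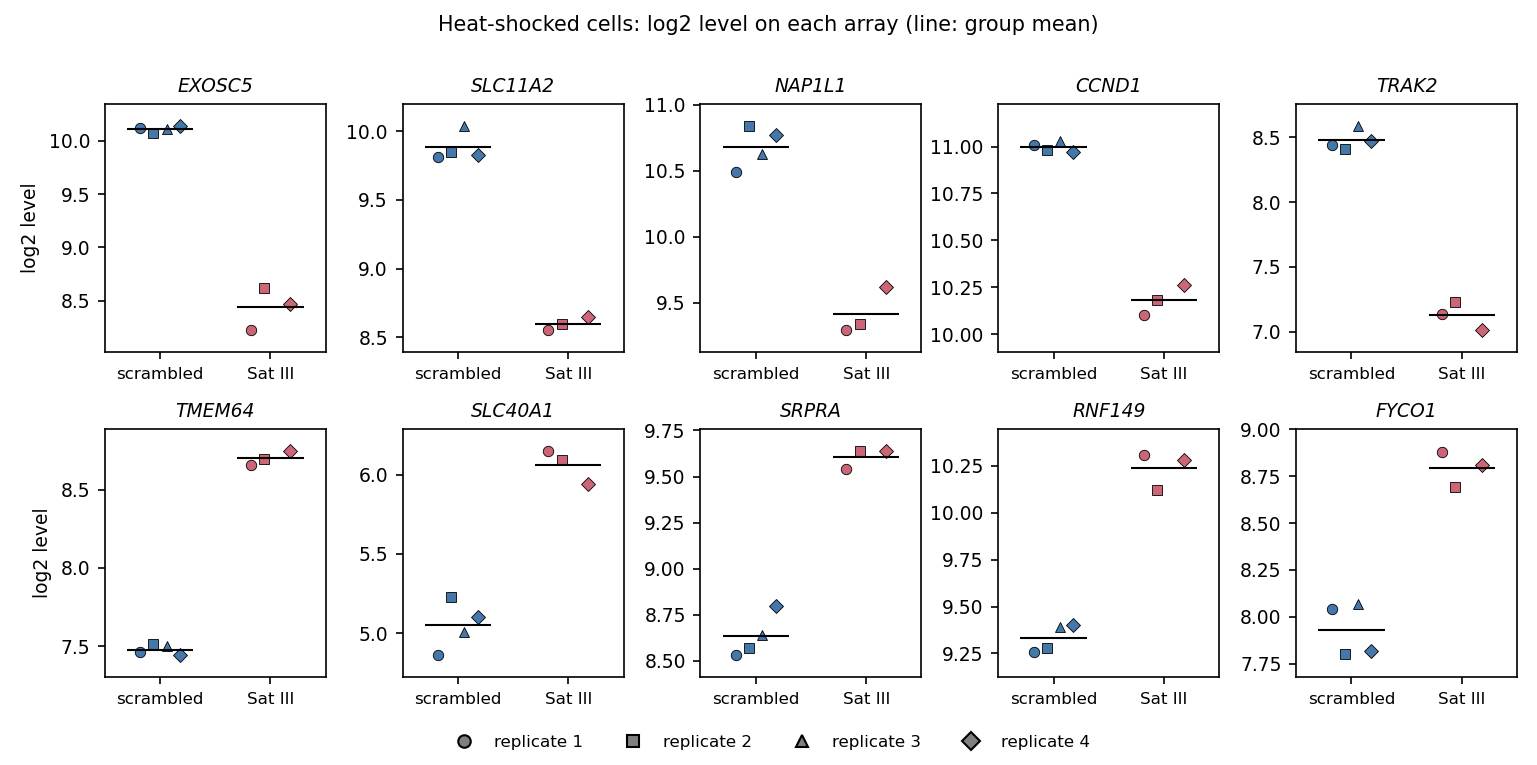
Log2 level on each of the 7 heat-shocked arrays for 5 genes that fell (top row) and 5 that rose (bottom row); marker shape gives the replicate number, blue is scrambled and red Sat III siRNA, and the line is the group mean. The y axes differ between panels, and in all 10 panels the 2 groups do not overlap. The genes were chosen with results from these arrays known.

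CCND1, the D-type cyclin that starts the passage through G1 with CDK4 and CDK6, read 10.10, 10.18 and 10.26 with Sat III siRNA. It read 11.01, 10.98, 11.03 and 10.97 with scrambled siRNA, and the groups stood clearly apart. The fall was -0.82 ± 0.07, or 1.76-fold (limma, adjusted p = 2.38e-07). E2F5, an E2F factor that mostly represses its targets, fell further, by 1.08 ± 0.14 on the log2 scale, or 2.12-fold. Its levels were 8.53, 8.67 and 8.70 against 9.69, 9.70, 9.80 and 9.67.

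In the list of G1 genes 3 of 27 fell and 2 rose, which is 18.5% against 7.03% over all genes, with a median of 0.03. The list holds CCND1, a gene given for the comparison, so this share is no independent support. With median scaling 2 fell and 0 rose. The activator E2F3 was the third fall, at -0.48 ± 0.12. Another D-type cyclin, CCND2, rose by 0.39 ± 0.08 (limma, adjusted p = 0.0035), with 11.38, 11.06 and 11.20 on the Sat III arrays above 10.82 to 10.83 on the scrambled ones. A second probe of CCND2 gave 0.40 ± 0.08. The kinase CDK6 rose by 0.34, and CCNE1 at -0.27, the inhibitor CDKN1B at -0.35 and MYC at 0.14 did not pass.

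Genes of later cell cycle phases came next. GINS2, a subunit of the replicative helicase complex, was the only one of 34 DNA replication genes to pass, which is 2.94% against 7.03% over all genes, and with median scaling 0 of 34 passed. It read 11.24, 11.29 and 11.37 against 11.94, 12.04, 12.05 and 12.08, a difference of -0.73 ± 0.07 (limma, adjusted p = 8.67e-07). Of 44 genes of G2 and mitosis 0 passed with limma. The lowest adjusted p-values there were 0.0613 for the kinesin KIF4A, at -0.32 ± 0.10, and 0.0879 for KIF23, at 0.27 ± 0.09. Among 15 p53 targets 0 passed as well, with SESN2 nearest at -0.40 ± 0.13 (limma, adjusted p = 0.0645).

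The heat response itself gives a check on the labels. HSPA6, an HSP70 gene that is almost silent without stress, averaged 4.77 in untreated scrambled cells and 4.64 in untreated Sat III cells. After heat it read 13.72, 13.64 and 12.58 with Sat III siRNA and 13.68, 13.74, 12.49 and 12.75 with scrambled siRNA. In both arms replicates 1 and 2 were high and replicates 3 and 4 lower, so the split ran by replicate number and not by siRNA. The Sat III group has no replicate 3, and the difference between the arms was 0.15 ± 0.26, with a 95% confidence interval from -0.39 to 0.68. Among the other strongly induced genes named here, HSPA1A gave a wider interval and the rest gave narrower ones. DNAJB1, an HSP40 co-chaperone, differed by 0.02 (interval -0.19 to 0.22), HSPH1 of the HSP110 family by -0.06 (-0.28 to 0.17), and the HSP70 co-chaperone BAG3 by 0.13 (-0.09 to 0.35). HSPA1B differed by -0.02 (-0.18 to 0.14), and HSPA1A, whose sequence is nearly the same, so that the probes may share signal, by 0.06 (-0.68 to 0.81).

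Of 37 tested cytosolic chaperones and HSF1 targets 0 rose and 2 fell, which is 5.41% against 7.03% over all genes, with a median of 0.06, and 0 passed with median scaling. The falls were DNAJB2, an HSP40 protein, at -0.38 ± 0.08, and CCT4, a subunit of the chaperonin that folds actin and tubulin, at -0.32 ± 0.08 (limma, adjusted p = 0.00462 and 0.00881). HSF1 was dim and did not pass, at 0.16 ± 0.25. Among 24 immediate early genes, the transcription factor genes and regulators that respond within minutes, 1 passed, which is 4.17% against 7.03% over all genes. With median scaling or with only the 2 heat-shocked groups in the fit, 0 of the 24 passed. The same held without scrambled replicate 2, or without Sat III replicate 2 or 4. Without scrambled replicate 1, 1 gene rose and 0 fell. The gene called with all arrays was EGR1, at -0.45 ± 0.13 (limma, adjusted p = 0.0304). Its levels were 7.72, 7.56 and 7.19 against 8.07, 8.05, 7.90 and 7.76, so all Sat III values lay below all scrambled ones by a narrow margin. FOS at -0.27 ± 0.15, JUN at 0.04 ± 0.09 and DUSP1 at 0.05 ± 0.14 did not pass.

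**Figure D3:**
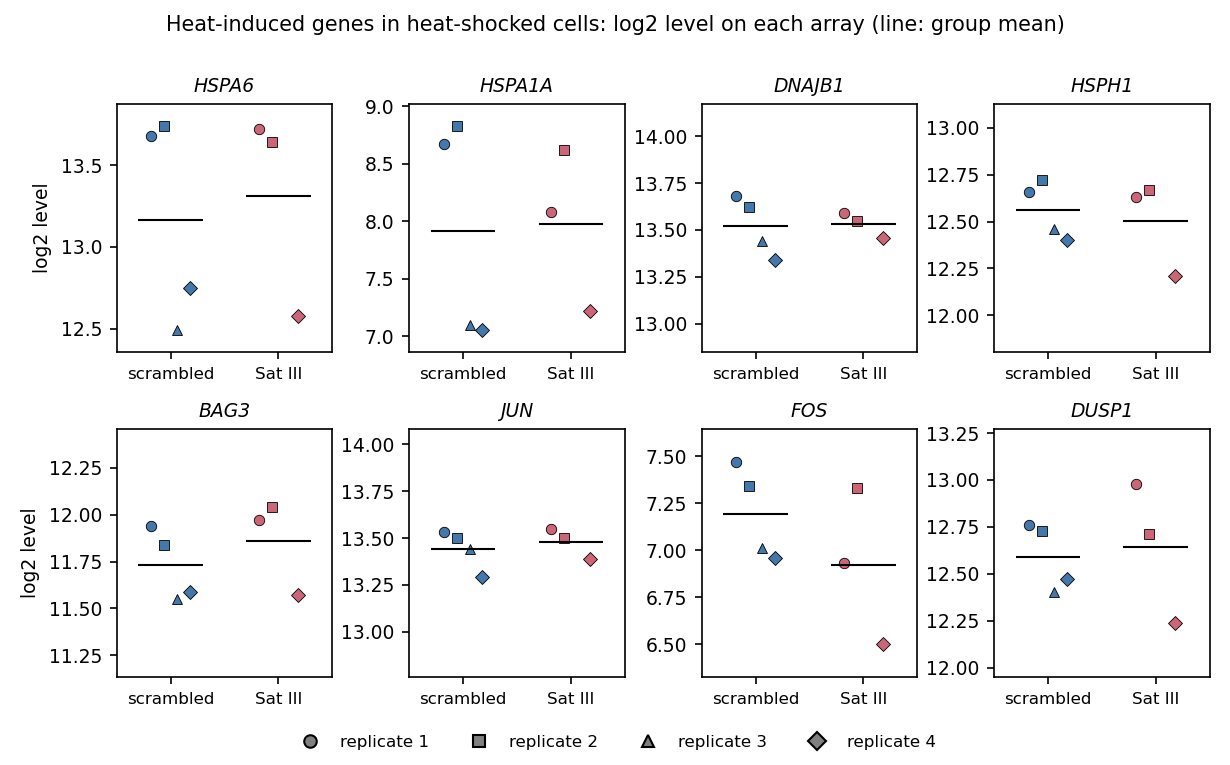
Log2 level of 8 heat-induced genes on the 7 heat-shocked arrays, drawn as in the plot of the 10 rising and falling genes. For HSPA6, HSPA1A, BAG3 and DUSP1 the circles and squares (replicates 1 and 2) lie above the triangles and diamonds (replicates 3 and 4) in each arm, and the group means, drawn as lines, are close together.

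Proteins known from nuclear stress bodies were listed together with hnRNPs, the proteins that package nascent RNA. Of 28 tested members 5 fell and 0 rose, which is 17.9% against 7.03% over all genes, while the median was 0.00. With median scaling 0 of the 28 passed, and with replicates 1 and 2 only 1 fell. All 5 were hnRNP or SR protein genes, a grouping that does not separate them from proteins of the bodies. HNRNPA2B1, an hnRNP that also binds m6A-marked RNA, read 12.39, 12.27 and 12.42 with Sat III siRNA and 13.01, 13.06, 12.91 and 12.67 with scrambled siRNA, a difference of -0.55 ± 0.11 (limma, adjusted p = 0.00152). HNRNPH3 fell by 0.51 ± 0.13, HNRNPA0 by 0.46 ± 0.10 and the SR protein SRSF9 by 0.40 ± 0.08, and the fifth was HNRNPM at -0.39. Among other members of the list, the scaffold proteins SAFB (0.01 ± 0.11) and SAFB2 (0.10) did not pass. Nor did the splicing factors SRSF1 (-0.04) and SRSF7 (0.04) or the acetyltransferase CREBBP (0.04). Among 22 SR proteins and their kinases TRA2A, a splicing activator, alone passed, at -0.64 ± 0.10 (limma, adjusted p = 0.000123). That is 4.55% against 7.03% over all genes, and 0 of the 22 passed with median scaling.

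Genes of pericentromeric heterochromatin and the centromere, from which Sat III is copied, gave 1 call among 26 tested. That is 3.85%, against 7.03% over all genes. With median scaling or with only the 2 heat-shocked groups in the fit, 0 of the 26 passed. The same held without any 1 of Sat III replicates 1, 2 and 4 or of scrambled replicates 1 and 2. The call was KMT5B, a histone H4 lysine methyltransferase, at -0.31 ± 0.09 (limma, adjusted p = 0.0283), with a second probe at -0.21 ± 0.12. The RNA interference machinery, which both siRNAs enter, was called for 3 of 16 genes, which is 18.8% against 7.03% over all genes, with a median of 0.12. With median scaling 1 of the 16 was called. MOV10, an RNA helicase that binds Argonaute proteins, fell by 0.79 ± 0.13, from 8.50, 8.68, 8.79 and 8.73 to 7.79, 7.87 and 8.02. FXR1, an RNA-binding protein of the fragile X family, rose by 0.50 ± 0.09, with a second probe at 0.10 ± 0.10, and Argonaute AGO1 rose by 0.37 ± 0.07. Of 14 interferon-response genes 0 passed with limma, at values from -0.35 to 0.15, and 23 of the 37 genes in that list were not tested.

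Actin and its binding proteins held 3 falls and 1 rise among 43 genes, which is 9.30% and near the 7.03% over all genes. TAGLN2, an actin-bundling transgelin, read 10.38, 10.25 and 10.43 against 11.42, 11.50, 11.53 and 11.56, and fell 2.22-fold. ACTA2, smooth muscle actin, read 6.46, 6.43 and 6.98 against 7.80, 7.70, 7.76 and 7.83, and fell 2.21-fold. The third was the bundling protein LCP1, which fell by 0.88 ± 0.06, and FSCN1, the bundler of filopodia, rose by 0.27 ± 0.07. Each of the 3 falling genes stood apart from the scrambled arrays on every Sat III array, and their adjusted p-values with limma were 2.72e-08, 2.12e-07 and 7.21e-09. The other 39 genes did not pass, and the list's median was -0.03.

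Some of the largest changes were in transporters and in proteins of the secretory pathway, described here one by one. SLC1A5, a glutamine transporter, fell by 1.19 ± 0.15, from 9.52, 9.62, 9.47 and 9.64 to 8.44, 8.25 and 8.42. The choline transporter SLC44A1 fell by 1.14 ± 0.10, with a second probe at -0.64 ± 0.10. SERP1, a small protein of the endoplasmic reticulum translocon, fell by 1.12 ± 0.13, whereas SRPRA, the receptor subunit that docks the signal recognition particle, rose by 0.97 ± 0.10. SRPRA read 9.54, 9.64 and 9.64 against 8.53, 8.57, 8.64 and 8.80. GOLM1, a Golgi membrane protein, fell by 1.13 ± 0.11, but a second probe near background gave -0.03 ± 0.20.

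The other large falls came from unlike functions. TRAK2, an adaptor that couples mitochondria to kinesin, read 7.14, 7.23 and 7.01 against 8.44, 8.41, 8.59 and 8.47, and fell 2.55-fold (limma, adjusted p = 5.62e-09). GNG4, a G protein gamma subunit, fell by 1.24 ± 0.12, OSTF1, an SH3 adaptor protein, by 1.15 ± 0.09, and AMMECR1L by 1.12 ± 0.12. For none of these 4 did the groups overlap, which was so for 19.4% of all genes tested. These and the other called genes were picked on the same arrays, so separated groups are no added support.

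Among the rises TMEM64, a transmembrane protein, was the largest. It read 8.66, 8.70 and 8.75 with Sat III siRNA and 7.46, 7.51, 7.50 and 7.44 with scrambled siRNA, a 2.34-fold rise of 1.23 ± 0.08 (limma, adjusted p = 4.4e-09). Its replicates differed by far less than the groups did. A second, dimmer probe of TMEM64 gave 0.76 ± 0.16. RNF149, a membrane-bound ubiquitin ligase, rose 1.87-fold, FYCO1, which links autophagosomes to kinesin, 1.81-fold, VPS4B, the ATPase that recycles ESCRT-III, 1.78-fold, and OCRL, an inositol phosphatase of endosomes, 1.74-fold. MTMR9 of the myotubularin family rose by 0.73 ± 0.09. OCRL's second probe gave 0.68 ± 0.12 and that of RNF149 0.64 ± 0.17.

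The remaining rises were DSC2, a desmosomal cadherin, at 0.85 ± 0.11, GUF1, a mitochondrial translation factor, at 0.84 ± 0.09, and GLCE, an epimerase of heparan sulfate synthesis, at 0.81 ± 0.09. TPRG1L and the hyaluronidase CEMIP2 followed at 0.77 ± 0.12 and 0.74 ± 0.12. For DSC2 a second, dimmer probe gave 0.21 ± 0.16. CELF2, a splicing regulator, had the noisiest rise, at 0.87 ± 0.22 (limma, adjusted p = 0.0153). It was detected on 2 of 4 scrambled arrays, where it ranged from 4.64 to 5.93, below the 5.99 to 6.45 of the Sat III arrays. Over all called genes with more than 1 tested probe, the probes had the same sign in 164 of 190.

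Lists of growth and stress metabolism followed. Of 55 cytosolic ribosomal protein genes 0 passed with limma, at values from -0.13 to 0.35; the nearest was RPL32 at 0.18 ± 0.07 (limma, adjusted p = 0.109). Of 36 ribosome biogenesis genes 2 fell and 1 rose, which is 8.33% against 7.03% over all genes: GAR1, of the box H/ACA snoRNP, at -0.40 ± 0.07, NIP7 at -0.36 ± 0.08, and NOP16 at 0.37 ± 0.10. SLC1A5 was the only call among 29 genes that respond to ATF4 and amino acid supply. In the endoplasmic reticulum stress list of 22 genes the chaperone CANX rose by 0.37 ± 0.09, with its second probe also at 0.37 ± 0.10. SC5D rose by 0.48 ± 0.11 as the only one of 17 cholesterol synthesis genes. SRXN1, a reductase of oxidised peroxiredoxins, fell by 0.57 ± 0.09 as the only one of 15 NRF2 targets, and 0 of 10 targets of TGF-beta, BMP and YAP passed. The share called was 3.45% for the ATF4 list and 4.55% for endoplasmic reticulum stress, against 7.03% over all genes. For cholesterol synthesis it was 5.88% and for NRF2 targets 6.67%. With median scaling 0 genes passed in the ribosome biogenesis, endoplasmic reticulum stress, cholesterol synthesis and NRF2 lists.

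Reference genes and markers of other cells were read beside these values. Of 9 reference genes 0 passed, with a median of -0.12, and the nearest was TBP at -0.26 ± 0.09 (limma, adjusted p = 0.0667). NEFM, a neurofilament known from HEK293 lines, rose by 0.32 ± 0.08 (limma, adjusted p = 0.0188), and the other 8 tested genes of that list did not pass. The keratinocyte and carcinoma markers EPCAM at 0.29 ± 0.10, CDKN2A at 0.27 ± 0.16 and CDH1 at -0.16 ± 0.12 did not pass. Nor did the fibroblast markers LUM at -0.30 ± 0.14, COL1A1 at 0.17 ± 0.16 and PDGFRA at 0.22 ± 0.23. The summed level of the HEK293 list on the linear scale was 10815 to 11981 with Sat III siRNA and 10025 to 11467 with scrambled siRNA, that of the 9 keratinocyte and carcinoma markers on the array 1608 to 1847 and 1414 to 1696, and that of the 10 fibroblast markers 479 to 493 and 475 to 501. Of the defining keratinocyte genes KRT5 and KRT14 were detected on no array, as were the fibroblast genes COL1A2 and COL3A1. The part of these shifts in the results was not tested. At the threshold the last genes called were TBPL1 at 0.33 ± 0.10 and SLC25A42 at -0.31 ± 0.09, and the next ones out were PAM16 at 0.26 ± 0.08 and RFTN1 at -0.42 ± 0.13.

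**Figure D4:**
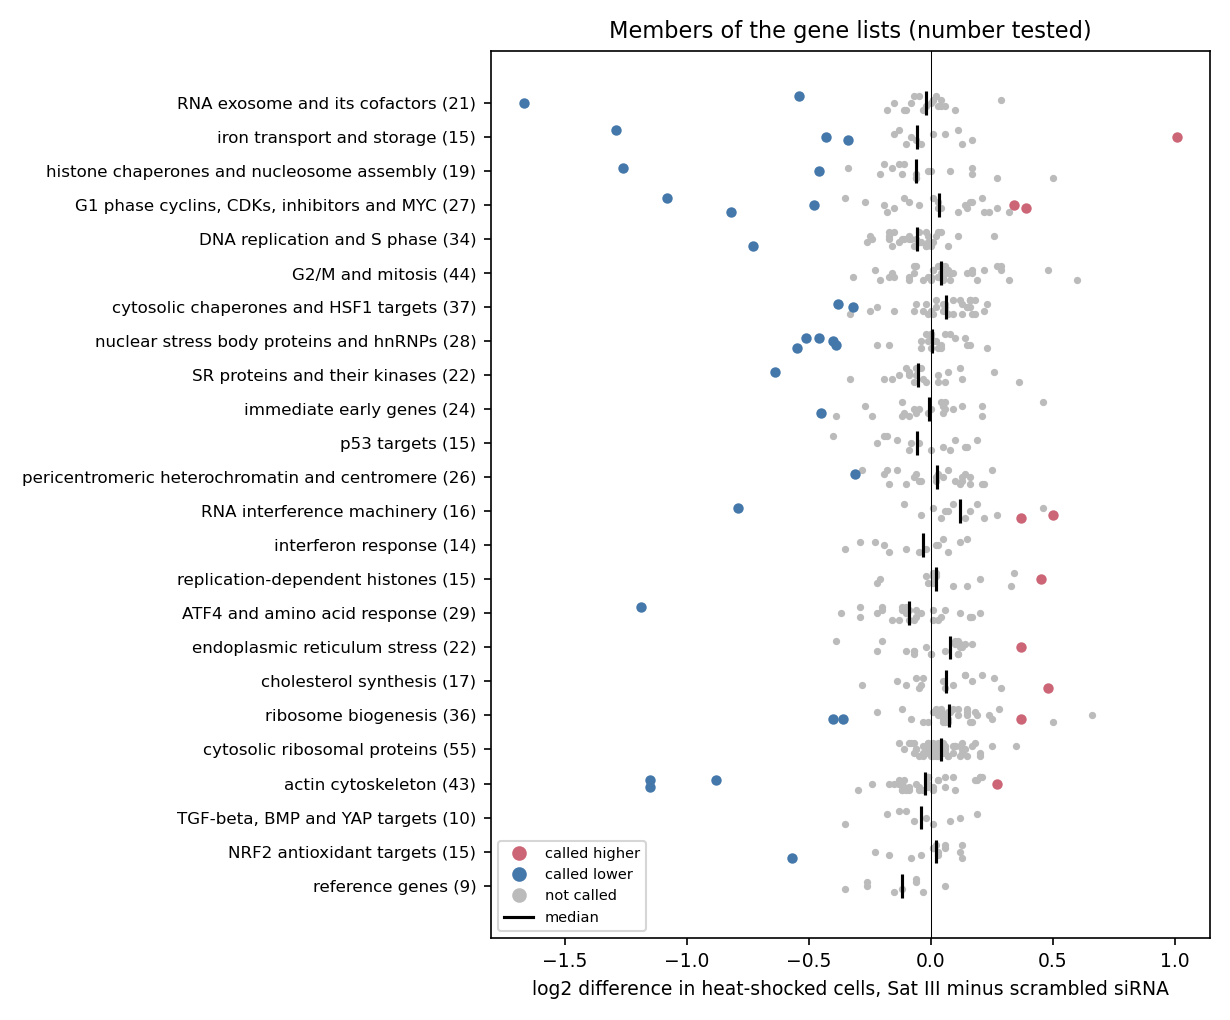
Log2 difference in heat-shocked cells (Sat III minus scrambled siRNA) of every tested member of 24 gene lists, with the number tested in brackets. Blue and red points were called lower and higher, grey points were not called, and the black bar is the list's median, which lies between -0.12 and 0.12 in each list although single members such as EXOSC5 and SLC11A2 lie far to the left.

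The siRNA difference was next set beside that in cells without heat and in recovering cells, where the same 2 siRNAs were compared on other arrays. In untreated cells 618 genes were called (6.09%), 230 higher (2.27%) and 388 lower (3.82%). In recovering cells 1067 were called (10.5%), 365 higher (3.6%) and 702 lower (6.92%). Of the 475 genes lower at the end of heat shock, 259 were also lower in untreated cells, which is 54.5% of the former and 66.8% of the latter. In recovery 354 were lower, or 74.5% and 50.4%. Of the 238 higher genes, 114 were higher in untreated cells (47.9% and 49.6%) and 137 in recovering cells (57.6% and 37.5%). In all 3 treatments 242 genes were called lower and 93 higher, and 0 of the 713 were called in the opposite direction in either. Over the 10147 genes the differences correlated at r = 0.65 with those in untreated cells and 0.72 with those in recovery; genes are not independent replicates.

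EXOSC5 differed by -1.25 in untreated cells and by -1.43 in recovering cells, against -1.67 at the end of heat shock. SLC11A2 gave -1.13 and -1.17 against -1.29, NAP1L1 -0.94 and -1.20 against -1.26, and CCND1 -0.70 and -0.88 against -0.82. All 4 genes thus passed in every treatment, with or without heat. TMEM64 was at 1.32 and 1.34 against 1.23, and TRAK2 at -1.52 and -1.77 against -1.35. SRPRA was at 0.56 and 0.64 against 0.97. SLC40A1 was called higher in untreated cells, at 0.63, and in recovering cells, at 0.65, as well. The size of its rise is not compared between treatments, since SLC40A1 was not above background in the scrambled heat-shocked cells.

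Whether the siRNA difference itself changed with heat was tested as a difference of differences. Between heat-shocked and untreated cells 0 of 10147 genes passed with limma, and 368 had an unadjusted p under 0.05, or 3.63%. Between heat-shocked and recovering cells 0 passed, and 349 did so unadjusted, or 3.44%. The intervals bound what could have been seen. For EXOSC5 the heat-shocked difference minus the untreated one was -0.42, with a 95% confidence interval from -0.72 to -0.12 (limma, adjusted p = 0.997). For SLC11A2 it was -0.16 (-0.41 to 0.09), for NAP1L1 -0.33 (-0.62 to -0.04), for CCND1 -0.12 (-0.34 to 0.10) and for SRPRA 0.41 (0.11 to 0.71). Of the 713 called genes, 184 (25.8%) were called in neither other treatment, 80 higher and 104 lower, but a call in one treatment and not in another is no test of a difference.

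The genes with the lowest p-value in these 2 tests were picked after their values had been seen. NAA60, an N-terminal acetyltransferase, read 5.43, 5.48 and 5.53 with Sat III siRNA and 6.22, 6.37, 6.58 and 6.42 with scrambled siRNA at the end of heat shock. Its difference there was -0.92 ± 0.14, against 0.08 in untreated and -0.02 in recovering cells. The difference of differences was -1.0 ± 0.19 against untreated cells and -0.90 ± 0.19 against recovering cells (limma, adjusted p = 0.415 and 0.228), and the probe was detected on 2 of the 3 Sat III arrays. HSPH1 was at -0.06 in heat-shocked and -0.93 in recovering cells, a difference of 0.88 ± 0.15 that did not pass (limma, adjusted p = 0.0711).

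**Figure D5:**
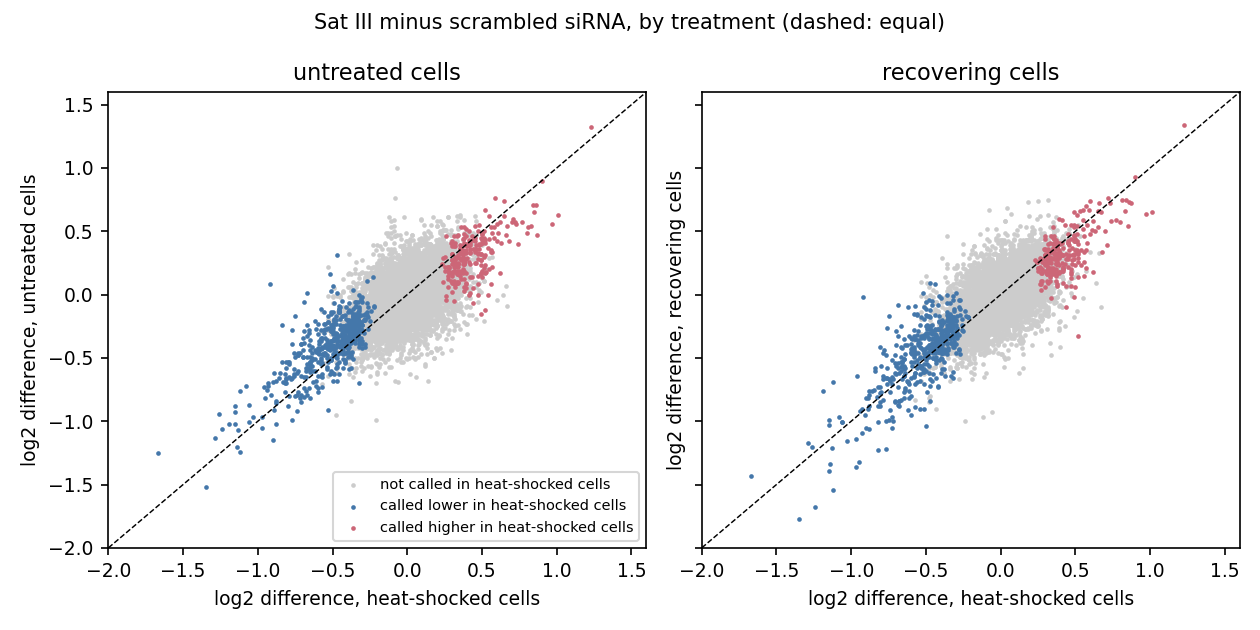
For each of 10147 genes the log2 difference in heat-shocked cells (x axis) is plotted against that in untreated cells (left) and in recovering cells (right), Sat III minus scrambled siRNA. Blue and red are the genes called lower and higher in heat-shocked cells, which lie mostly in the lower left and upper right along the dashed line of equality.

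The change with heat within each arm was read side by side, since these comparisons use the arrays already compared. SLC11A2 changed by -0.42 with heat in scrambled cells and by -0.58 in Sat III cells, and passed in both. NAP1L1 changed by -0.16 and -0.49, passing in the Sat III arm, and EXOSC5 by 0.08 and -0.34 and CCND1 by -0.08 and -0.21 without passing in either. HSPA6 rose by 8.39 and 8.67, and DNAJB1 by 4.42 and 4.41. The untreated means of HSPA6 lay below the lowest detected signal of the untreated arrays (5.33 to 5.48). Its 2 rises are therefore not compared in size. In all, 1184 genes passed in the scrambled arm (11.7%), 606 rising (5.97%) and 578 falling (5.7%). In the Sat III arm, which had 1 array fewer in each of its 2 groups, 773 passed (7.62%), 417 rising (4.11%) and 356 falling (3.51%).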

How the data were processed

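RNA of 22 HEK293T samples in 6 groups was measured on Illumina bead arrays. The deposited scanner table gives, per the file headers, an intensity and a detection p-value for each of 48803 probes on each array; the intensity values are linear. Sources used here do not name the software behind them. The authors' normalised table was not used. The scanner intensities went through limma (3.58.1, under R 4.3.3): neqc (negative controls inferred from detection p-values, offset 16, quantile normalisation, log2). Probes with a detection p-value under 0.01 on at least 3 arrays were kept (15324), of which 13097 had 1 gene symbol in the platform annotation, and each gene took its brightest probe (10147 genes). Of all probes, 28098 had 1 symbol, 13 several and 20692 none; 28059 symbols were updated by gene number. The number of arrays limits the precision.

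One limma model with a mean per group was fitted over all 22 arrays, which share the estimate of spread, and Benjamini-Hochberg adjustment ran over all genes. Where a group was not above background on any array, the fold is "at least": the bright mean against the higher of the dim signal and the lowest detected signal (5.34 to 5.62 on log2). Alternatives were other scaling, background correction, filters, probe rules, groups in the fit, blocks, array weights and left-out arrays. The model was tested on simulated data.

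Named genes were the 4 given for the comparison, the 14 largest rises and 14 largest falls, up to 4 called members of each list (otherwise the 2 with the lowest p), detected markers of other cells, and genes at the threshold. Other list members, heat-induced genes and the 2 genes of the difference tests were named after their values were seen. The members and lists were chosen with earlier results of these data known. Same-numbered samples of the 2 arms deviated together at r = 0.15, -0.01 and 0.29, so the replicate numbers were not taken as pairs. The second principal component and HSPA6 nevertheless followed the replicate number, and the heat-shocked Sat III group lacks replicate 3.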

Additional observations from a re-analysis of the deposited data

Results flagged for a closer look

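In 3 of 78 named genes, 1 of the 4 scrambled heat-shocked arrays stood far from the other 3 by Dixon's test at the 95% level; chance gives about 1 in 20 groups. SLC11A2 read 10.04 on replicate 3 and 9.81 to 9.85 on the others, and without that array its fall was -1.24. ZCCHC7 read 8.94 on replicate 3 and 8.69 to 8.71 on the others, and its fall without it was -0.48. NOP16 read 9.31 on replicate 2 and 9.52 to 9.56 on the others, and without that array its rise was 0.31 and no longer passed (limma, adjusted p = 0.0703).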

How the results depend on the processing

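The genes were called on the arrays that the alternatives reuse, so an unchanged direction among them is no independent support. The count of 713 went to 68 with median scaling (all 68 among the 713), 250 with replicates 1 and 2 only and 37 with replicates 3 and 4 only, of which 231 and 34 were among the 713; these last 2 fits rest on fewer arrays. It was 541 with only the 2 groups in the fit and 928 with array weights. With 1 array left out it ran from 434 (without Sat III replicate 2) to 604. In untreated cells the count of 618 was 44 with median scaling, 309 with only its groups, 193 and 9 with replicates 1 and 2 or 3 and 4 only, 973 with array weights, and 374 to 583 with 1 array left out. In recovering cells 1067 became 114, 710, 293 and 151 in the first 4 of these, and 812 to 1013. The cause was not tested. The difference from untreated cells had 0 to 2 genes with 1 array left out (2 without Sat III heat shock replicate 4). The difference from recovering cells had 0 to 2, and 1 gene without background correction, with detection on all 7 arrays, with trend and robust moderation, or with the replicate number as a block. With that replicate block, whose numbers were not shown to pair samples, 843 genes were called at the end of heat shock. With replicates 1 and 2 against 3 and 4 as the block, 852 were called, 710 of them among the 713. EXOSC5, SLC11A2 and NAP1L1 passed in 19 of 19 alternatives. CCND1 passed in 18, the exception being replicates 3 and 4 only, where its difference was -0.74. Of the named genes' values, 1296 kept their side of the threshold, 153 lost the call, 29 gained it and 0 reversed. Dim probes limit what can be seen: 40 called genes were not above background in 1 of the groups.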

Other observations

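Gene symbols that share a prefix were counted after the values had been seen, for prefixes with at least 25 tested genes, beside the 7.03% called over all genes. Of 198 solute carrier (SLC) genes, which code for membrane transporters, 24 were lower and 3 higher with Sat III siRNA at the end of heat shock (13.6%), with a median of -0.02. Of 51 genes with RAB symbols, mostly small GTPases of vesicle traffic and their partners, 6 were higher and 2 lower (15.7%), with a median of 0.04. Of 30 DDX genes, RNA helicases of the DEAD-box family, 1 was higher and 4 lower (16.7%). DDX, RAB and SLC had the largest shares called of all prefixes counted, and the families were not recounted with median scaling. Of 48 MRPL genes, which code for proteins of the large mitochondrial ribosomal subunit, 4 were higher and 1 lower (10.4%), with a median of 0.12. Zinc finger genes of the ZNF series gave 3 higher and 10 lower among 293 (4.44%), and the 55 RPL and 39 RPS symbols gave 0 calls with limma.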
